A study of Mus musculus with 11 samples.

Results

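The comparison described here is that of DKO mouse embryonic stem (ES) cells carrying a re-expressed Dnmt3b1 (DKO+Dnmt3b1) with their DKO parent line, which lacks Dnmt3a and Dnmt3b but keeps Dnmt1. It rested on 2 of the 11 RNA-seq libraries of the series, 1 for each line, chosen by the genotype labels. Values were RPKM (reads per kilobase of transcript and 1 M reads) as made by the authors, and differences are given on the scale of log2(RPKM + 0.5), DKO+Dnmt3b1 minus DKO. Of 24016 genes in the table, the 13345 at 1 RPKM or more in either library were compared. The other lines of the series were DKO+Dnmt3a1 and DKO+Dnmt3a2 (a longer and a shorter isoform of Dnmt3a put back), TKO (no Dnmt1, Dnmt3a or Dnmt3b), TKO+Dnmt3b1, TKO+Dnmt3a1 and TKO+Dnmt3a2 (2 libraries each), and WT (J1). All were ES cells of strain 129S4/SvJae, cultured with serum and LIF on irradiated mouse embryonic fibroblasts, so that feeder RNA can enter each library. Each line may be 1 clone, and a clonal difference cannot be told apart from the effect of the added enzyme.

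Dnmt3b is 1 of the enzymes that methylate unmethylated CpG sites, and Dnmt1 copies existing methylation onto the new strand after replication. Dnmt3b1 is the full-length, catalytically active isoform of Dnmt3b. In mouse ES cells without Dnmt3a and Dnmt3b, methylation is lost slowly as the cells divide, and promoters of germline genes and of X-linked gene clusters are among the regions where this methylation is known to keep genes silent. Dnmt3b is also known for its activity over transcribed gene bodies, whose histone mark it binds.

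Read depth, estimated from the steps between low RPKM values, was 32.74 M reads in DKO+Dnmt3b1 and 29.48 M in DKO, within a range of 21.7 to 32.78 M over the 11 libraries. A single read in a transcript of 2 kb corresponded to 0.0153 RPKM in DKO+Dnmt3b1 and 0.017 RPKM in DKO. With 1 library per line, no replicate of either condition was measured. The standard errors (SE) below come from limma fitted over all 11 libraries, and they assume that unreplicated lines vary as the duplicate libraries of TKO+Dnmt3a1 and TKO+Dnmt3a2 did. The labels do not say whether those libraries came from separate cultures, so the p-values may measure technical spread only.

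A total of 1363 genes were higher by 1 or more on the log2 scale in DKO+Dnmt3b1 than in DKO (10.2% of those compared), and 1270 were lower by 1 or more (9.52%), together 19.7%. The median difference of all 13345 genes was 0.04, with quartiles of -0.44 and 0.49. The higher genes reached larger differences: 307 were past 2 and 77 past 3, against 152 and 11 of the lower genes. Of the genes near the threshold in either direction, 207 were past 1 by at most 0.05 and 216 were short of it by at most 0.05. No gene passed an adjusted p of 0.05 with limma, the smallest adjusted p being 0.0701, while 3873 of 14229 genes (27.2%) had an unadjusted p under 0.05. The differences of single genes from DKO are therefore descriptions of 2 libraries.

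Dnmt3b RNA was at 29.6 RPKM in DKO+Dnmt3b1, 13.3 in DKO+Dnmt3a1 and 14.7 in DKO+Dnmt3a2, against 5.68 in DKO, a difference of 2.29 ± 0.32 (SE) from DKO. It was at 100 RPKM in TKO+Dnmt3b1, between 20.9 and 44.4 in the 4 Dnmt3a add-back libraries of TKO, 45.3 in TKO and 25.03 in WT. Within each family the Dnmt3b1 line was the highest, but lines labelled as lacking Dnmt3b held Dnmt3b reads, up to more than WT in TKO. The table has 1 value per gene, so RNA of the added Dnmt3b1 and RNA from the disrupted alleles cannot be told apart.

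Among 14 methyltransferases, cofactors and demethylation genes at 1 RPKM or more, Dnmt3b was the 1 member past a difference of 1, and none was lower by 1 or more. The median over the 14 genes was 0.4. Dnmt1 was at 55.9 RPKM in DKO+Dnmt3b1 and 74.5 in DKO (difference -0.41 ± 0.24), against 6.73 to 12.4 in the 6 TKO-family libraries. Dnmt3a was at 6.76 RPKM in DKO+Dnmt3b1, 17.6 in DKO+Dnmt3a1 and 11.4 in DKO+Dnmt3a2, against 3.63 in DKO. Dnmt3l, the cofactor without catalytic activity, was at 190 and 140 RPKM in DKO+Dnmt3b1 and DKO, and Tet1, which oxidises methylcytosine, at 45.3 and 42.7.

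Transcripts of the feeder fibroblasts were more abundant in DKO+Dnmt3b1 than in any other DKO-family library for 28 of 29 markers, against 35.7% of all genes compared. Col1a1, the main chain of type I collagen, was at 175 RPKM in DKO+Dnmt3b1, 36.8 in DKO+Dnmt3a1 and 10.9 in DKO+Dnmt3a2, against 83.1 in DKO (difference from DKO 1.07 ± 0.42). Col1a2, its second chain, was at 114 RPKM in DKO+Dnmt3b1, 23.9 in DKO+Dnmt3a1 and 3.05 in DKO+Dnmt3a2, against 58.0 in DKO (0.97 ± 0.44). Col3a1, the chain of type III collagen, was at 25.9, 4.20, 1.07 and 11.4 RPKM in the same 4 lines (1.15 ± 0.40). All 3 were thus about as far apart between DKO+Dnmt3b1 and DKO as the threshold used for a call. DKO itself held more of them than both Dnmt3a add-backs, and DKO+Dnmt3a2 held the least.

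Of 29 fibroblast markers at 1 RPKM or more, 21 were higher by 1 or more and 0 lower, with a median of 1.24. Their summed level was 2901 RPKM in DKO+Dnmt3b1, 821.5 in DKO+Dnmt3a1 and 312.8 in DKO+Dnmt3a2, against 1167 in DKO, and 3845 in TKO+Dnmt3b1 against 1030 in TKO. None of the 30 markers in the table was at 0 in any library. The markers did not scale together. Twist2, a transcription factor of dermal fibroblasts, was at 28.9 RPKM in DKO+Dnmt3b1 and 3.46 in DKO (2.90 ± 0.64), and Prrx1, a mesenchymal homeobox factor, at 31.0 and 5.25 (2.46 ± 0.42). Vim, the intermediate filament vimentin, was at 820 RPKM in DKO+Dnmt3b1 and 188 in DKO. Twist1 was at 10.3 and 9.84 RPKM (0.06 ± 0.28), and the gelatinase Mmp2 was at 13.9 RPKM in DKO+Dnmt3b1 and 24.9 in DKO (-0.82 ± 0.27). Whether more feeder cells or more of these RNAs per cell were present cannot be told apart in bulk RNA.

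Macrophage transcripts differed in the same direction. Lyz2, lysozyme of macrophages, was at 180 RPKM in DKO+Dnmt3b1, 19.5 in DKO+Dnmt3a1 and 0.066 in DKO+Dnmt3a2, against 63.3 in DKO (1.5 ± 0.26). Of 18 macrophage markers at 1 RPKM or more, 11 were higher by 1 or more and 0 lower, with a median of 1.29. Csf1r, the receptor that keeps macrophages alive, was at 7.70 RPKM in DKO+Dnmt3b1 and 0.696 in DKO, and Spi1, the transcription factor PU.1, at 6.84 and 0.707. The 20 macrophage markers in the table summed to 309.2 RPKM in DKO+Dnmt3b1 and 120.2 in DKO, and 7 of them were at 0 in DKO+Dnmt3a2. Smooth muscle and myofibroblast markers summed to 236.4 RPKM in DKO+Dnmt3b1 and 80.23 in DKO. Of 5 endothelial markers, 2 were higher by 1 or more (Kdr and Flt1) and 3 lower (Pecam1, Tek and Eng). Pecam1 is also a member of the naive pluripotency list, so its value need not come from endothelial cells. Cdh5, another endothelial marker, was under 1 RPKM in every library.

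To set fibroblast RNA beside each change, a fibroblast step was taken for every gene as DKO+Dnmt3a1 minus DKO+Dnmt3a2, a difference in which neither DKO+Dnmt3b1 nor DKO enters and in which fibroblast RNA is the larger in DKO+Dnmt3a1. The fibroblast list had a median step of 1.58, and 25 of its 29 members had a step of 0.75 or more. Of the 1363 higher genes 397 (29.1%) had a step of 0.75 or more, against 20 of the 1270 lower genes (1.57%) and 4.25% of all genes compared. The 2 lines differ in the isoform too, so the step does not measure fibroblast RNA alone. Nor does a small step mark a gene as free of feeder or macrophage RNA. Of 18 macrophage markers, 10 had a step of 0.75 or more. Ptprc, a macrophage marker at 0.068 RPKM in DKO+Dnmt3a1 and 0 in DKO+Dnmt3a2, had a step of 0.18.

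**Figure D1:**
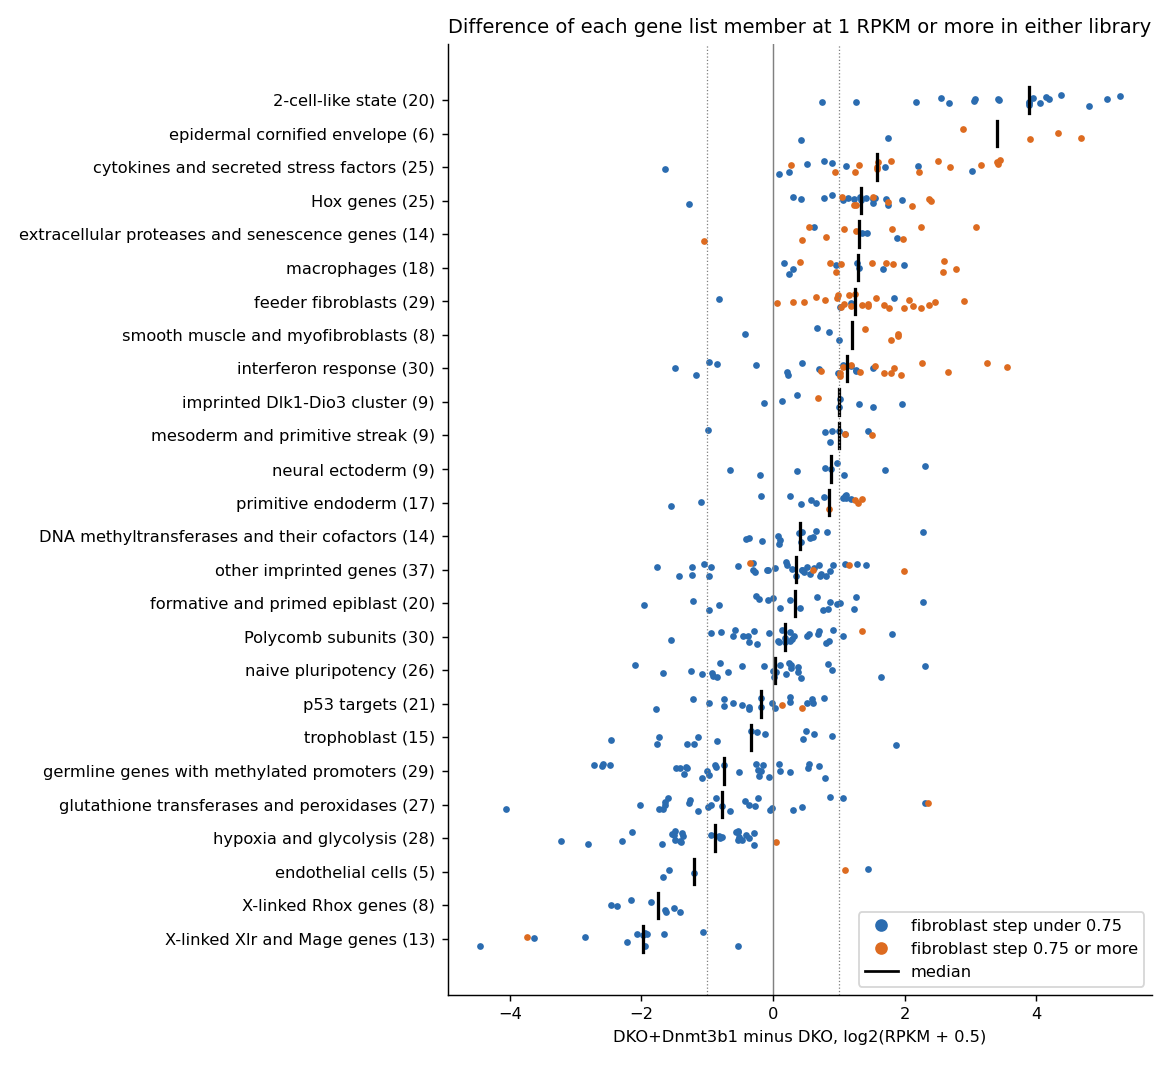
Difference between DKO+Dnmt3b1 and DKO (log2 of RPKM + 0.5, x axis) for each member of the gene lists at 1 RPKM or more in either library; 1 point per gene, the black bar is the list's median, the number of members is in parentheses, and dotted lines mark a difference of 1 in each direction. The 2-cell-like list lies to the right with blue points (step under 0.75), the fibroblast, cytokine and protease lists are mostly orange (step 0.75 or more), and the Xlr and Mage and Rhox lists lie farthest to the left.

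**Figure D2:**
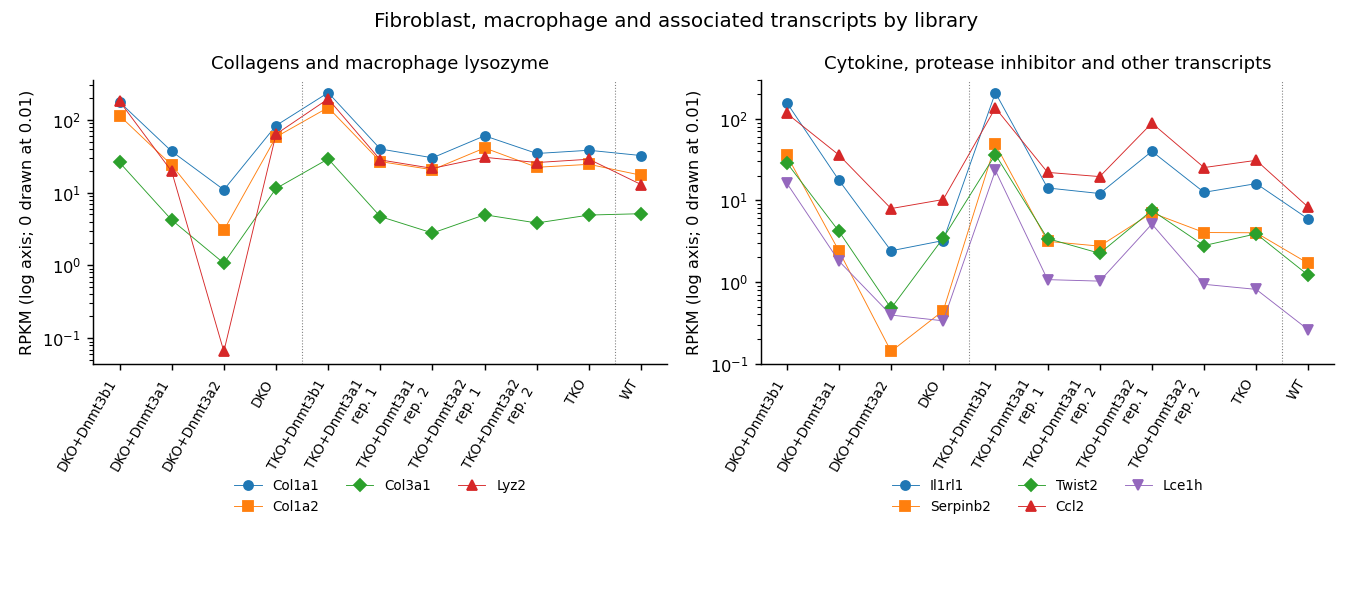
RPKM (log axis) of collagens and Lyz2 (left) and of 5 other transcripts (right) in each of the 11 libraries; each point is 1 library and the lines only join the points of 1 gene. DKO+Dnmt3b1 and TKO+Dnmt3b1 hold the highest values of each gene in their families, and DKO+Dnmt3a2 the lowest collagen and Lyz2 values.

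Several of the largest differences lay in secreted and stress-response transcripts with a large fibroblast step. Il1rl1, the receptor for interleukin 33, was at 158 RPKM in DKO+Dnmt3b1, 17.7 in DKO+Dnmt3a1 and 2.41 in DKO+Dnmt3a2, against 3.22 in DKO (5.41 ± 0.72, step 2.64), and at 209 RPKM in TKO+Dnmt3b1 against 16.0 in TKO. Serpinb2, an inhibitor of plasminogen activators, was at 35.8 RPKM in DKO+Dnmt3b1, 2.4 in DKO+Dnmt3a1 and 0.141 in DKO+Dnmt3a2, against 0.444 in DKO (5.27 ± 0.42, step 2.18). These differences were larger than those of the collagens beside them, while TKO+Dnmt3b1 was again the other library with high values.

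Of 25 cytokines and secreted stress factors, 17 were higher by 1 or more and 1 was lower, with a median of 1.58, and 15 had a step of 0.75 or more. Ccl2, a chemokine that attracts monocytes, was at 117 RPKM in DKO+Dnmt3b1, 36 in DKO+Dnmt3a1 and 7.93 in DKO+Dnmt3a2, against 10.2 in DKO (3.45 ± 0.78). Csf1, the growth factor of macrophages, was at 94.9 RPKM in DKO+Dnmt3b1, 60.4 in DKO+Dnmt3a1 and 10.1 in DKO+Dnmt3a2, against 8.38 in DKO (3.43 ± 0.80). It also varied between the 2 libraries of 1 line, with 149 and 41.0 RPKM in TKO+Dnmt3a2 replicates 1 and 2. Il11, an interleukin of the IL-6 family, was at 8.46 RPKM in DKO+Dnmt3b1 and 0.605 in DKO (3.02 ± 0.31, step 0.72). Il6 itself was at 2.90 and 0.930 RPKM. Of 14 extracellular protease and senescence genes, 9 were higher by 1 or more and 1 lower, among them Mmp12, macrophage elastase, at 16.1 RPKM in DKO+Dnmt3b1 and 1.45 in DKO (3.09 ± 0.35). The lower member was Cdkn2a, which encodes cell cycle inhibitors, at 22.1 RPKM in DKO+Dnmt3b1 and 46.1 in DKO (-1.05 ± 0.21).

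Genes of the epidermal cornified envelope were near absent from DKO. Of 6 at 1 RPKM or more, 5 were higher by 1 or more, with a median of 3.4, and 4 had a step of 0.75 or more. A member near 0 in DKO can pass the 1 RPKM minimum only through DKO+Dnmt3b1, and over all 27 members in the table the median was 0.23, with 7 at 0 in both libraries. Lce1h was at 16.3 RPKM in DKO+Dnmt3b1, 1.8 in DKO+Dnmt3a1 and 0.393 in DKO+Dnmt3a2, against 0.334 in DKO (4.33 ± 0.88), and Lce1f was at 12.4 RPKM in DKO+Dnmt3b1 and listed at 0 in DKO and DKO+Dnmt3a2. Lce1 genes are close copies and may share reads. Interferon response genes were also higher: 19 of 30 by 1 or more against 2 lower, with a median of 1.12, and 15 of the 30 had a step of 0.75 or more. Isg15, a ubiquitin-like modifier, was at 29.9 RPKM in DKO+Dnmt3b1, 21.3 in DKO+Dnmt3a1 and 1.65 in DKO+Dnmt3a2, against 2.09 in DKO (3.55 ± 0.86), and at 52.9 and 13.8 RPKM in the 2 TKO+Dnmt3a2 libraries. Hox genes, which pattern the body axis and are expressed in embryonic fibroblasts, were higher by 1 or more in 20 of 25 and lower in 1, with a median of 1.34 and a step of 0.75 or more in 8. Over all 39 Hox genes in the table, including those under 1 RPKM, the median was 1.06. Hoxc10 was at 6.23 RPKM in DKO+Dnmt3b1, 2.28 in DKO+Dnmt3a1 and 0.524 in DKO+Dnmt3a2, against 0.772 in DKO (2.4 ± 0.53). The part of feeder RNA in these differences was not tested.

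Genes of the 2-cell-like state were higher in DKO+Dnmt3b1 than in DKO. These genes are transcribed at the 2-cell stage of the embryo and, in ES cell cultures, in a small and changing fraction of cells. Of the 20 members at 1 RPKM or more, 19 were higher by 1 or more and 0 lower, with a median of 3.89, and all 23 in the table were higher in DKO+Dnmt3b1. None of the 20 had a fibroblast step of 0.75 or more, the median step being 0.18, in contrast to the collagens. DKO+Dnmt3b1 held the highest value of all 11 libraries for 19 of the 20, against 7.3% of all genes compared. A member near 0 in DKO could pass the 1 RPKM minimum only through DKO+Dnmt3b1, so the filter itself favours such counts. Over all 23 members in the table the median was 3.43.

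Zscan4d, a zinc finger protein involved in telomere maintenance and the usual marker of the state, was at 39.3 RPKM in DKO+Dnmt3b1, 9.97 in DKO+Dnmt3a1 and 8.48 in DKO+Dnmt3a2, against 0.523 in DKO (5.28 ± 0.83). In the TKO family it reached 3.95 RPKM in TKO+Dnmt3b1, 0.799 and 3.86 in the TKO+Dnmt3a1 libraries, 0.850 and 1.62 in the TKO+Dnmt3a2 libraries, and 0.478 in TKO, and it was at 5.94 RPKM in WT. For Zscan4d, DKO and TKO were thus the lowest libraries and every add-back was higher. The 2 libraries of TKO+Dnmt3a1 differed almost as much as TKO+Dnmt3a1 replicate 2 did from TKO. Tcstv3, a gene of the same state, was at 65.7 RPKM in DKO+Dnmt3b1, 15.5 in DKO+Dnmt3a1 and 13.6 in DKO+Dnmt3a2, against 3.22 in DKO (4.15 ± 0.88). It was at 2.17 and 9.90 RPKM in the TKO+Dnmt3a1 libraries and 3.30 in TKO, so not every add-back library was above TKO. Usp17lb, a deubiquitinating enzyme, was at 13 RPKM in DKO+Dnmt3b1 and 0.310 in DKO (4.06 ± 0.82). Zfp352, a zinc finger gene of the 2-cell embryo, was at 5.62 RPKM in DKO+Dnmt3b1, 0.772 in DKO+Dnmt3a1 and 0.688 in DKO+Dnmt3a2, against 0.074 in DKO (3.41 ± 0.39). Zscan4, Usp17l, Tdpoz and Tcstv genes lie in clusters of close copies, so their single values are uncertain.

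Against the mean of the 2 Dnmt3a add-backs of DKO, 4 of the 20 genes of the state passed limma's test as higher (against 3.35% of all genes tested), among them Tdpoz3 (2.84 ± 0.36, adjusted p = 0.0263), Zfp352 (2.32 ± 0.34, adjusted p = 0.0329) and Tdpoz4 (2.46 ± 0.40, adjusted p = 0.0418). The fourth, Usp17la, lay at the threshold. Zscan4d did not pass (2.04 ± 0.72, limma adjusted p = 0.239). None of these calls was kept when either TKO+Dnmt3a1 library was left out, where Tdpoz3 and Zfp352 had limma adjusted p-values of 0.0741 and 0.0742. Over all alternatives the limma adjusted p ran between 0.00398 and 0.122 for Tdpoz3 and between 0.00837 and 0.169 for Zfp352.

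CpG content differs between the promoters of the lists, and the 200 bases upstream of the start are shown for the 2-cell-like gene Zscan4d (chr7:11166149-11166348, minus strand) and for a gene each of those lower in DKO+Dnmt3b1, the X-linked Xlr3c (chrX:73265391-73265590, minus strand) and the germline gene Smc1b (chr15:85131958-85132157, minus strand). The sequences are those of RefSeq on GRCm38.p6, given 5′ to 3′ with CpG sites in capitals.
Zscan4d: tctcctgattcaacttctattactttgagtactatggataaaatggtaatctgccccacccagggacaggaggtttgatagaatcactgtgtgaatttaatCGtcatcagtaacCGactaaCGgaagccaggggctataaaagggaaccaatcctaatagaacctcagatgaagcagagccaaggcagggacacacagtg
Xlr3c: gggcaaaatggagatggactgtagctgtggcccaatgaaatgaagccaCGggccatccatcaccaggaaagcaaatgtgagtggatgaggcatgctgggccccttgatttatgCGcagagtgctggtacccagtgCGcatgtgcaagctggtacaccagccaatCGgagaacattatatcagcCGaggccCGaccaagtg
Smc1b: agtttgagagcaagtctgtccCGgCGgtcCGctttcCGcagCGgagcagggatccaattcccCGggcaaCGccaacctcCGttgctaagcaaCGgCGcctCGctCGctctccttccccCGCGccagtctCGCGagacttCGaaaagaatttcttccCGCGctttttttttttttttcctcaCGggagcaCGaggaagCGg
In the window of 300 bases around the start (250 before, 50 after) the 10 genes of the 2-cell-like list with a promoter in the reference had a median of 1.0 CpG sites, the 13 Xlr and Mage genes 7.0, the 24 germline genes 19.5 and the 9752 matched genes 21.0. Smc1b carried 29 CpG sites, Xlr3c 7 and Zscan4d 3.

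**Figure D3:**
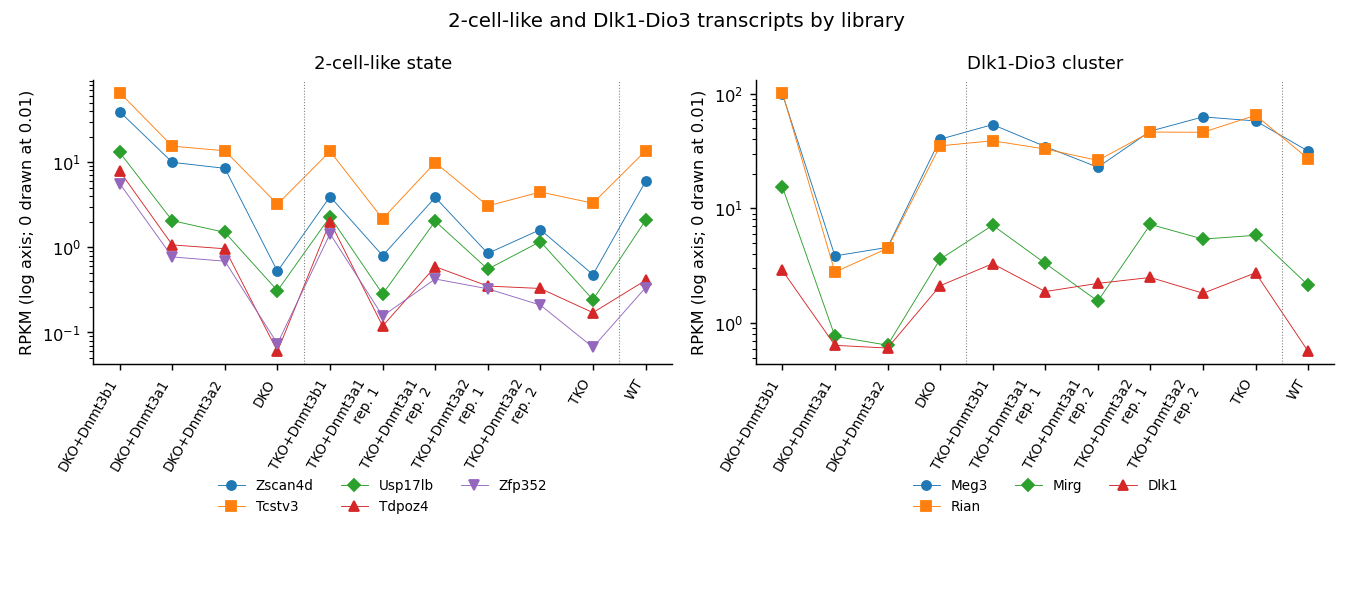
RPKM (log axis) of 2-cell-like genes (left) and Dlk1-Dio3 transcripts (right) in each of the 11 libraries; each point is 1 library and the lines only join the points of 1 gene. DKO+Dnmt3b1 holds the highest value of each 2-cell-like gene shown, and DKO+Dnmt3a1 and DKO+Dnmt3a2 stand below all other libraries for Meg3, Rian and Mirg.

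The imprinted Dlk1-Dio3 cluster on chromosome 12 set DKO+Dnmt3b1 apart from the DKO lines in which Dnmt3a was put back. Its noncoding RNAs Meg3, Rian and Mirg are transcribed from the maternal allele, and methylation of the cluster's control region is known to silence them in some ES cell lines. Rian was at 102 RPKM in DKO+Dnmt3b1, 2.78 in DKO+Dnmt3a1 and 4.48 in DKO+Dnmt3a2, against 35.1 in DKO (difference from DKO 1.53 ± 0.23). Meg3 was at 99.7 RPKM in DKO+Dnmt3b1, 3.85 in DKO+Dnmt3a1 and 4.57 in DKO+Dnmt3a2, against 40.1 in DKO (1.30 ± 0.35), and Mirg was at 15.4, 0.767, 0.642 and 3.60 RPKM in these lines (1.95 ± 0.49). The remaining 7 libraries included the Dnmt3a add-backs of TKO. These 7 held 22.8 to 62.7 RPKM of Meg3 and 26.2 to 64.8 RPKM of Rian. DKO+Dnmt3b1 was above and both Dnmt3a add-backs of DKO were below all 7 for both RNAs.

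Of 9 members of the cluster at 1 RPKM or more, 5 were higher by 1 or more than in DKO and 0 lower, with a median of 1.01, and DKO+Dnmt3b1 was the highest of the 11 libraries for 6. The 9 include Mir1906-2, which is placed on the X chromosome and shares reads with Mir1906-1 of the cluster. Without it 4 of 8 were higher by 1 or more, with a median of 0.85, and DKO+Dnmt3b1 was the highest library for 5. Over all genes compared, 10.2% were higher by 1 or more and DKO+Dnmt3b1 was the highest library for 7.3%. Against the mean of DKO+Dnmt3a1 and DKO+Dnmt3a2, 6 of the 9 passed limma's test, all higher, and 5 of the 8 without Mir1906-2. Over all genes tested 3.35% were called higher. The difference was 4.66 ± 0.20 for Rian (limma adjusted p = 0.00216), 4.42 ± 0.31 for Meg3 (limma adjusted p = 0.0157) and 3.72 ± 0.43 for Mirg (limma adjusted p = 0.0247). With either TKO+Dnmt3a1 library left out, Rian (limma adjusted p of 0.00927 and 0.00931) and Meg3 (0.022 in both) were still called and Mirg (0.0615 and 0.0614) was not. Over all alternatives the limma adjusted p of Rian ran between 7.93e-05 and 0.0269, that of Meg3 between 0.000397 and 0.0631 and that of Mirg between 0.000815 and 0.111. The protein-coding genes of the cluster were low: Dlk1, a Notch-related membrane protein, was at 2.88 RPKM in DKO+Dnmt3b1, 0.640 in DKO+Dnmt3a1 and 0.606 in DKO+Dnmt3a2, against 2.12 in DKO. In the TKO family Meg3 had 53.7 RPKM with Dnmt3b1 put back and 57.8 in TKO. The difference between the families was not called for Rian (2.26, limma adjusted p = 0.995). The fibroblast step was -0.60 for Rian, -0.22 for Meg3 and 0.15 for Mirg, and 1 member, AF357359, had a step of 0.75 or more (0.94).

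Other imprinted genes showed no common direction, with 5 of 37 higher and 5 lower by 1 or more and a median of 0.35. H19, a maternally expressed noncoding RNA, was at 57.8 RPKM in DKO+Dnmt3b1, 66.9 in DKO+Dnmt3a1 and 65.6 in DKO+Dnmt3a2, against 157 in DKO (-1.43 ± 0.23), with 391 RPKM in TKO+Dnmt3b1, against 246 in TKO. Grb10, an adaptor that dampens insulin signalling, was at 27.3 RPKM in DKO+Dnmt3b1 and 9.93 in DKO (1.42 ± 0.23). Ascl2, a factor of the trophoblast lineage, was at 1.20 RPKM in DKO+Dnmt3b1 and 5.27 in DKO (-1.76 ± 0.35).

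Among the lists, the 2 of X-linked gene clusters had the largest shares of members lower by 1 or more. Of 13 Xlr and Mage genes at 1 RPKM or more, 12 were lower by 1 or more and 0 higher, with a median of -1.98. Of all genes compared 9.52% were lower by 1 or more. Members near 0 in DKO+Dnmt3b1, such as Xlr3c and Xlr5c, passed the 1 RPKM minimum only through DKO, so the filter itself favours such counts. Of the 20 genes in the table, 19 had a lower value in DKO+Dnmt3b1. Over all 20 the median was -1.79. Xlr3c, a lymphoid and germ cell gene related to the synaptonemal complex protein Sycp3, was at 0.498 RPKM in DKO+Dnmt3b1, 0.277 in DKO+Dnmt3a1 and 0.154 in DKO+Dnmt3a2, against 21.5 in DKO (-4.46 ± 0.54). Xlr3a was at 1.60 RPKM in DKO+Dnmt3b1, 0.871 in DKO+Dnmt3a1 and 0.169 in DKO+Dnmt3a2, against 27.7 in DKO (-3.74 ± 0.51). Xlr5c was listed at 0 in DKO+Dnmt3b1 and at 5.72 RPKM in DKO. All 3 add-backs of DKO were far below DKO, and WT was at 0.019 RPKM for Xlr3c and 0.872 for Xlr3a.

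In the TKO family, where Dnmt1 is missing too, the same genes differed less: Xlr3c had 5.82 RPKM in TKO+Dnmt3b1, against 9.87 in TKO, and Xlr3a at 9.09 and 25.7. The median of the 13 Xlr and Mage genes in that pair was -0.71, with 3 lower by 1 or more. The difference between the families was -3.75 for Xlr3c and -2.29 for Xlr3a, both with a limma adjusted p of 0.995, so neither was called. The Xlr3, Xlr4 and Xlr5 genes are close copies and may share reads.

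All 8 Rhox genes at 1 RPKM or more, homeobox genes of reproductive tissues in 1 X-linked cluster, were lower by 1 or more. Of all genes compared 9.52% were. Members near 0 in DKO+Dnmt3b1, such as Rhox2g and Rhox2h, passed the 1 RPKM minimum only through DKO, so the filter itself favours this count. The median was -1.75 for the 8 genes and -0.78 over all 25 in the table. Rhox9 was at 1.07 RPKM in DKO+Dnmt3b1, 3.57 in DKO+Dnmt3a1 and 4.22 in DKO+Dnmt3a2, against 7.64 in DKO (-2.38 ± 0.33), and Rhox6 at 2.0, 3.60, 4.34 and 6.63 RPKM in these lines (-1.51 ± 0.24). For Rhox6 and Rhox9 DKO+Dnmt3b1 was the lowest DKO-family library, whereas for Rhox2a, at 0.388 RPKM in DKO+Dnmt3b1 and 2.71 in DKO, both Dnmt3a add-backs were listed at 0. In the TKO family Rhox9 had 12.3 RPKM in TKO+Dnmt3b1, against 12.8 in TKO, and the median of the list was -0.22.

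Germline genes whose promoters are methylated in somatic cells were lower as a group, but less uniformly. Of 29 at 1 RPKM or more, 11 were lower by 1 or more and 0 higher, with a median of -0.75. Of all genes compared 9.52% were lower by 1 or more. Here too, members near 0 in DKO+Dnmt3b1 could pass the 1 RPKM minimum only through DKO. Over all 38 in the table the median was -0.49. Tuba3a, a testis tubulin, was at 9.12 RPKM in DKO+Dnmt3b1, 6.86 in DKO+Dnmt3a1 and 7.24 in DKO+Dnmt3a2, against 57.6 in DKO (-2.59 ± 0.38). Smc1b, the meiotic cohesin subunit, was at 2.79 RPKM in DKO+Dnmt3b1, 1.81 in DKO+Dnmt3a1 and 1.47 in DKO+Dnmt3a2, against 17.7 in DKO (-2.47 ± 0.34). Dpep3, a testis dipeptidase, was at 0.704 RPKM in DKO+Dnmt3b1 and 7.40 in DKO (-2.71 ± 0.73). For these 3 genes the Dnmt3a add-backs were lower still than DKO+Dnmt3b1.

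Dazl, an RNA-binding protein of germ cells, followed the same order: it was at 9.01 RPKM in DKO+Dnmt3b1, 2.92 in DKO+Dnmt3a1 and 2.96 in DKO+Dnmt3a2, against 18.7 in DKO (-1.01 ± 0.52). Sycp3 and Ddx4 did not follow it. Sycp3, of the synaptonemal complex, was at 3.28 RPKM in DKO+Dnmt3b1, 14.2 in DKO+Dnmt3a1 and 13.3 in DKO+Dnmt3a2, against 10.006 in DKO (-1.47 ± 0.61), lowest in DKO+Dnmt3b1. Ddx4, an RNA helicase of germ cells, was at 7.17 and 6.60 RPKM in DKO+Dnmt3b1 and DKO (0.11 ± 0.59). In the TKO pair the germline list had a median of 0.22, with 3 members lower and 2 higher by 1 or more. Ctcfl, the germline paralogue of Ctcf, was at 0.912 RPKM in DKO+Dnmt3b1 and 3.26 in DKO, but at 3.75 in TKO+Dnmt3b1 and 0.841 in TKO (difference between the families -3.08, limma adjusted p = 0.995). No germline or Rhox gene had a fibroblast step of 0.75 or more. For some members this was fixed in advance: Rhox2a, Rhox2e, Rhox2g and Rhox2h were listed at 0 in both Dnmt3a add-backs. Members near 0 in both, such as Tuba3b at 0.203 and 0.199 RPKM, could hardly reach it, so the step says little about them. Among the Xlr and Mage genes 1 did, Xlr3a, with a step of 1.04 and values under 1 RPKM in both Dnmt3a add-backs.

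The motif CACGTG, the E-box bound by several helix-loop-helix factors and palindromic on both strands, is shown in capitals in the 200 bases upstream of Sycp3 (chr10:88459387-88459586, plus strand, GRCm38.p6), because repression of germline promoters in ES cells is known to involve E-box factors.
Sycp3: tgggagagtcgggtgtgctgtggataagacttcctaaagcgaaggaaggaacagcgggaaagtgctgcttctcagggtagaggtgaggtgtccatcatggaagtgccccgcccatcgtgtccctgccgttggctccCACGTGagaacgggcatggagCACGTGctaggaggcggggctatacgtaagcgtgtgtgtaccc
It occurred in 11 of the 24 germline promoters with a sequence (45.8%) and in 10.5% of the 9752 promoters of all genes, within windows of the same 300 bases. Of the 9 germline genes with a promoter that were lower by 1 or more, 3 held it, and of the other 15, 8 did.

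**Figure D4:**
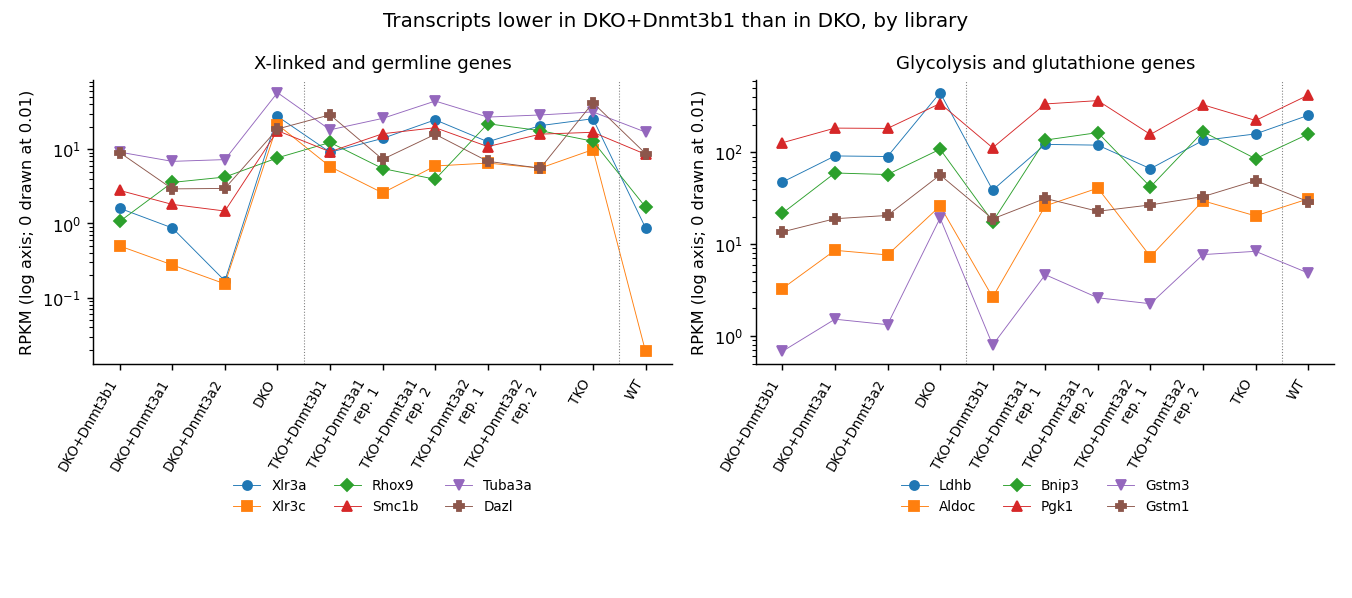
RPKM (log axis) of X-linked and germline genes (left) and of glycolysis and glutathione genes (right) in each of the 11 libraries; each point is 1 library and the lines only join the points of 1 gene. DKO holds the highest DKO-family value of each gene; all 3 add-backs of DKO are below it, and the X-linked genes shown are at 5.82 to 12.3 RPKM in TKO+Dnmt3b1.

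Glycolytic and hypoxia-responsive genes were lower in DKO+Dnmt3b1. Of 28 members, 13 were lower by 1 or more and 0 higher, with a median of -0.89, and 27 had a lower value. Ldhb, a subunit of lactate dehydrogenase, was at 47.5 RPKM in DKO+Dnmt3b1, 91.5 in DKO+Dnmt3a1 and 90.2 in DKO+Dnmt3a2, against 447 in DKO (-3.22 ± 0.47). Aldoc, an aldolase, was at 3.29 RPKM in DKO+Dnmt3b1, 8.59 in DKO+Dnmt3a1 and 7.65 in DKO+Dnmt3a2, against 26.1 in DKO (-2.81 ± 0.88), and Bnip3, a mitophagy receptor induced by hypoxia, at 21.7, 59.7, 57.4 and 108 RPKM (-2.29 ± 0.86). DKO+Dnmt3b1 was the lowest DKO-family library for 21 of the 28, against 30.5% of all genes compared.

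These genes were lower in the TKO pair as well. TKO+Dnmt3b1 had 2.65 RPKM of Aldoc and TKO 20.4, Bnip3 at 17.6 and 85.3, and Ldhb at 38.9 and 159, and the list's median there was -0.84 with 10 members lower by 1 or more. They also varied between the libraries of 1 line: Aldoc was at 7.34 and 29.7 RPKM and Bnip3 at 42.1 and 168 RPKM in TKO+Dnmt3a2 replicates 1 and 2. The same replicate 1 had the higher fibroblast sum of that line, 1437 RPKM against 881.2 in replicate 2. Across the 11 libraries the 2 with the highest fibroblast sums, TKO+Dnmt3b1 and DKO+Dnmt3b1, had the lowest Aldoc and Bnip3 values, and whether a smaller share of ES cell RNA played a part was not tested. Pou5f1, expressed in the ES cells and not in fibroblasts, was at 557 RPKM in DKO+Dnmt3b1 and 553 in DKO. Other ES cell genes did not all match it: of 26 naive pluripotency genes, 15 had a higher and 11 a lower value in DKO+Dnmt3b1. By 1 or more, 2 were higher and 4 lower, among the lower Dppa5a (864 and 2062 RPKM) and Tfcp2l1 (12.8 and 27.7 RPKM).

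The motif ACGTG, the core of the element bound by hypoxia-inducible factors, is in capitals on either strand in the 200 bases upstream of Pgk1 (chrX:106186900-106187099, plus strand, GRCm38.p6), a glycolytic enzyme at 127 RPKM in DKO+Dnmt3b1, 184 in DKO+Dnmt3a1 and 182 in DKO+Dnmt3a2, against 341 in DKO (-1.42).
Pgk1: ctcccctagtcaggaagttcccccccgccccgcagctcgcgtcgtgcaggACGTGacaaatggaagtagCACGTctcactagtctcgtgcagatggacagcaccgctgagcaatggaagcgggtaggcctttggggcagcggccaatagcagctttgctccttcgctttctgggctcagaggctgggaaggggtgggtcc
Searched on both strands, ACGTG, which also lies within CACGTG, occurred in 14 of 26 promoters of the list (53.8%) and in 26.3% of all promoters. It was in 7 of the 12 promoters of lower genes and in 7 of the 14 others.

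Glutathione transferases and peroxidases were lower by 1 or more in 10 of 27 and higher in 3, with a median of -0.77. Gstm3, a mu-class transferase, was at 0.682 RPKM in DKO+Dnmt3b1, 1.53 in DKO+Dnmt3a1 and 1.33 in DKO+Dnmt3a2, against 19.3 in DKO (-4.07 ± 0.78), and Gstm1 at 13.6, 19, 20.6 and 56.8 RPKM (-2.02 ± 0.30). The Gstm genes are related and may share some reads. Gpx8, a peroxidase of the endoplasmic reticulum, was at 43.1 RPKM in DKO+Dnmt3b1 and 8.02 in DKO (2.36 ± 0.40) with a fibroblast step of 1.52, and Gsto1, an omega-class transferase, at 129 and 25.7 RPKM (2.31 ± 0.28) with a step of 0.61. Other large negative differences were those of Ndufa4l2, a mitochondrial protein induced by hypoxia, at 2.27 RPKM in DKO+Dnmt3b1 and 42.9 in DKO (-3.97 ± 0.84), Got1l1 (-3.91 ± 0.55), Ly6g6e (-3.78 ± 0.64), and Bmp7, a ligand of the BMP family (-3.02 ± 0.55). Ndufa4l2 also differed between the 2 libraries of TKO+Dnmt3a2, at 8.97 and 35.9 RPKM.

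Naive pluripotency genes had a median near that of all genes. Of 26, 2 were higher and 4 lower by 1 or more, with a median of 0.03. Nanog was at 149 RPKM in DKO+Dnmt3b1 and 164 in DKO (-0.13 ± 0.32). Dppa3, which protects maternal methylation in the zygote, was at 13.6 RPKM in DKO+Dnmt3b1, 20.1 in DKO+Dnmt3a1 and 27.4 in DKO+Dnmt3a2, against 60.2 in DKO (-2.11 ± 0.21). It was at 29.6 RPKM in TKO+Dnmt3b1, 37.2 to 45.3 in the 4 Dnmt3a add-back libraries of TKO, 118 in TKO and 11.7 in WT, so that each add-back was below its parent line. Gbx2, a homeobox factor downstream of LIF, was at 39.7 RPKM in DKO+Dnmt3b1, 49.9 in DKO+Dnmt3a1 and 61.3 in DKO+Dnmt3a2, against 7.61 in DKO (2.31 ± 0.56). Myc was at 60.001 RPKM in DKO+Dnmt3b1, 37.8 in DKO+Dnmt3a1 and 32.2 in DKO+Dnmt3a2, against 5.22 in DKO (3.40 ± 0.64, step 0.23). DKO was the lowest of the 11 libraries for Myc, and TKO+Dnmt3a2 replicates 1 and 2 held 33.4 and 11.8 RPKM.

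Lineage lists are described by their members at 1 RPKM or more. Over all genes compared, 10.2% were higher and 9.52% lower by 1 or more. Formative and primed epiblast genes were higher by 1 or more in 4 of 20 and lower in 2 (median 0.34), neural genes higher in 3 of 9 (0.88), and mesoderm genes higher in 4 of 9 (1.0). Primitive endoderm genes were higher in 8 of 17 and lower in 2 (0.85), with Dab2, an endocytic adaptor, at 10.6 RPKM in DKO+Dnmt3b1, 2.37 in DKO+Dnmt3a1 and 2.11 in DKO+Dnmt3a2, against 4.65 in DKO (1.11 ± 0.28, step 0.14). Basement membrane collagens of that list had larger steps, 1.21 for Col4a2. Trophoblast genes were lower in 6 of 15 and higher in 1 (-0.34), with Esx1, a placental homeobox gene on the X chromosome, at 0.492 RPKM in DKO+Dnmt3b1 and 4.98 in DKO (-2.47 ± 0.40) and Krt7, a simple epithelial keratin, at 0.497 and 2.83 (-1.74 ± 0.36). Polycomb subunits were higher in 3 of 30 and lower in 1 (0.18), and p53 targets lower in 2 of 21 and higher in 0 (-0.18). Over all members in the table, including those under 1 RPKM, the median was 0.34 for the formative and primed list, 0.07 for the neural list, 0.29 for the mesoderm list, 0.67 for the primitive endoderm list and -0.28 for the trophoblast list.

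Dnmt3b1 had also been put back into TKO, a pair that shares no library with the DKO pair. Of the 1363 genes higher in DKO+Dnmt3b1, 1315 (96.5%) were also higher in TKO+Dnmt3b1 than in TKO, against 49.4% of all genes compared, and 888 (65.2%) by 1 or more, against 10.1%. Among the 966 with a fibroblast step under 0.75, 924 (95.7%) were higher in the TKO pair and 534 (55.3%) by 1 or more. These 966 still hold macrophage markers such as Ptprc and Cd14, so they are not genes free of feeder or macrophage RNA. Of the 1270 lower genes, 1183 (93.1%) were lower in the TKO pair, against 50.4% of all genes, and 492 (38.7%) by 1 or more, against 6.13%. The median difference of the higher genes was 1.47 in the DKO pair and 1.3 in the TKO pair, and that of the lower genes -1.36 and -0.85. Both Dnmt3b1 lines were the richest of their families in fibroblast and macrophage transcripts. The difference between the pairs was tested with limma and called for no gene (647, or 4.55%, had an unadjusted p under 0.05, and the smallest adjusted p was 0.995).

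**Figure D5:**
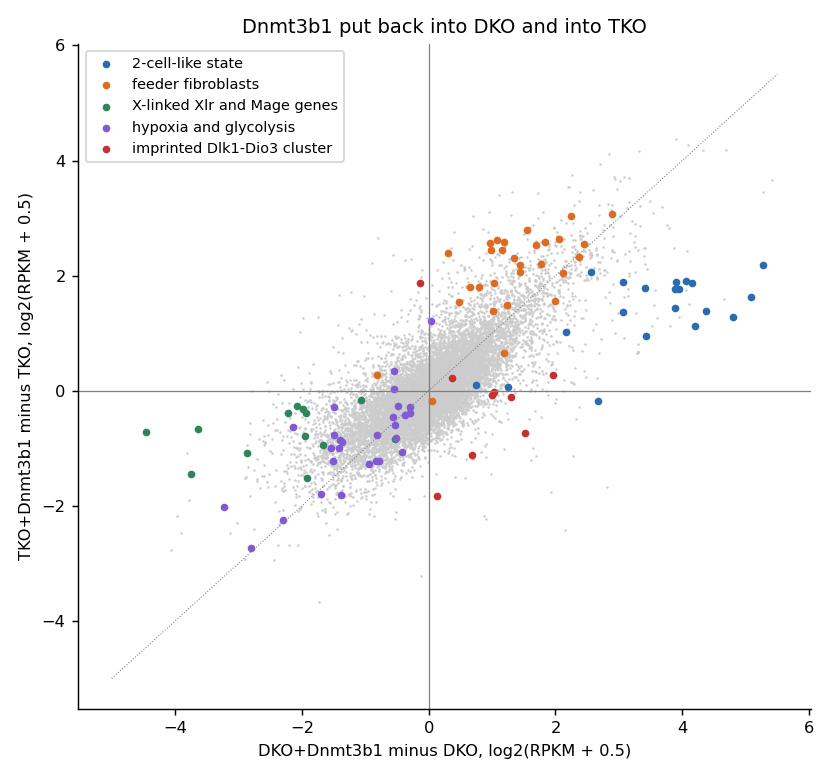
Difference between DKO+Dnmt3b1 and DKO (x axis) and between TKO+Dnmt3b1 and TKO (y axis), log2 of RPKM + 0.5; each grey point is 1 of the 13345 genes, 5 lists are coloured, and the dotted line marks equal differences. Fibroblast genes lie mostly above the line, hypoxia and glycolysis genes along it at negative values, and 2-cell-like and Xlr and Mage genes farther from 0 on the x axis than on the y axis.

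Lists differed in how the pairs compared. The 2-cell-like genes had a median of 3.89 in the DKO pair and 1.53 in the TKO pair, fibroblast genes 1.24 and 2.31, and Dlk1-Dio3 members 1.01 and -0.08. DKO+Dnmt3a1 and DKO+Dnmt3a2 share the DKO control with the pair described here, so their differences from DKO are given side by side only. In the 1270 genes lower in DKO+Dnmt3b1 the median difference from DKO was -1.36 in DKO+Dnmt3b1, -0.95 in DKO+Dnmt3a1 and -1.01 in DKO+Dnmt3a2, and in the 1363 higher genes it was 1.47, 0.55 and 0.01.

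A test that leaves the DKO library out set DKO+Dnmt3b1 against the mean of DKO+Dnmt3a1 and DKO+Dnmt3a2. With limma, 477 of 14229 genes were higher in DKO+Dnmt3b1 at an adjusted p under 0.05 (3.35%) and 6 lower (0.0422%). Of the 477, 245 (51.4%) had a fibroblast step of 0.75 or more, against 4.25% of the 13345 genes compared with DKO. Higher than DKO by 1 or more were 344, against 10.2% of the 13345. Both counts reuse libraries of this test, so neither is separate support for the calls. The step is taken from the same DKO+Dnmt3a1 and DKO+Dnmt3a2 libraries, and the difference from DKO uses the same DKO+Dnmt3b1 library. The fibroblast list had 26 of its 29 members among the calls and the macrophage list 15 of 18, led by Lyz2 (5.74 ± 0.23, limma adjusted p = 0.00216) and including Col1a1 (3.09 ± 0.36, limma adjusted p = 0.0249), Col1a2 (3.62 ± 0.38, limma adjusted p = 0.0209) and Col3a1 (3.28 ± 0.34, limma adjusted p = 0.021). By limma no call fell among 29 germline genes (5 at an unadjusted p under 0.05), 8 Rhox genes (4), 28 hypoxia and glycolysis genes (1), 26 naive pluripotency genes (6) and 30 interferon response genes (15). Of all 14229 genes tested, 16.6% had an unadjusted limma p under 0.05. So few genes were called in all that the absence of calls in lists this short says little about them. The count depended on the replicated lines: without TKO+Dnmt3a1 replicate 1, or without replicate 2, it was 6 in place of 483, and those 6 were Lyz2, Rian, Meg3, AF357359, Mir1906-1 and Mir1906-2. Of these 6 transcripts, Lyz2 is the macrophage marker and the others belong to the Dlk1-Dio3 list, where Mir1906-1 and Mir1906-2 are copies that share reads. The SE of this test leaves out the spread between DKO+Dnmt3a1 and DKO+Dnmt3a2. For Lyz2 that spread was large, with 19.5 RPKM in DKO+Dnmt3a1 and 0.066 in DKO+Dnmt3a2 (step 5.14).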

How the data were processed

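Per the labels' protocols, polyA libraries were prepared by TruSeq RNA Library Prep Kit v2. It does not mark strand, so reads of overlapping and antisense genes cannot be separated. The submitters' processing notes name bcl2fastq 1.8.4, STAR 2.4.0 and the build mm9. The deposited values are RPKM for 24016 genes, 3140 of them at 0 in every library. The counting tool and gene lengths are not given in the sources used here. Depth was estimated from the spacing of RPKM values in transcripts of up to 400 nt, at which 98.9% to 100% of low values were whole reads within 0.05.

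Differences were taken on log2(RPKM + 0.5), which understates the change of low genes. With 1 library per line a gene counted as called by a difference of 1 or more. In addition limma 3.58.1 (R 4.3.3, eBayes with a trend) was fitted to the 14229 genes at 1 RPKM or more in a library, with 9 group means, and Benjamini-Hochberg adjusted p-values under 0.05 were called. The unit was RPKM, so no count test was run. Members, the 26 gene lists and all rules were chosen with earlier results of these data known. Genes named were the 15 largest differences in each direction, the 15 largest with a fibroblast step under 0.75, and list members past 1 (up to 8 a list), the first 2 of each list, with every methyltransferase, fibroblast and macrophage marker open to naming. Pgk1 and AF357359 are named from the lists in addition, and the 6 calls left in a smaller fit were named after their values were seen. RefSeq promoters (GRCm38.p6) matched 9752 of the 13345 genes. Alternatives changed the pseudocount, scaling, filter, trend, replicate block and libraries fitted. Some genes that the naming rule gives are not reported here.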

Additional observations from a re-analysis of the deposited data

How the results depend on the processing

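The counts of genes past 1 fell to 766 higher and 757 lower with a filter of 5 RPKM, where fewer genes were compared, and were within 1.5 times the main counts under the other alternatives. Of 197 named genes past 1, 184 to 197 were past 1 in the same direction under another pseudocount or scaling, and 0 changed sign, nor did the median of any list. Quantile normalization moved the median of all genes by -0.04 and the share of higher genes among those past 1 to 48.0%, against 51.8%. Of the limma calls between DKO+Dnmt3b1 and DKO there were 27 with a pseudocount of 1, 155 with no filter on low values and 417 with a filter of 5 RPKM, against 0, and 0 whichever library of a replicated line was left out. The difference between the DKO and TKO pairs gave 105 calls with no filter. Against the Dnmt3a add-backs there were 224 calls with quantile normalization and 259 with no filter, against 483, and between 6 and 612 with 1 library left out. The cause of these shifts was not tested. With a replicate block, calls between DKO+Dnmt3b1 and DKO came to 1441 and those against the Dnmt3a add-backs to 989. The numbers share no stated source, and deviations of same-numbered libraries correlated at 0.086 over 14229 genes in 2 pairs, so the block was not used. Depth and 1 library per line limit what single low genes can show.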

Other observations

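Of the 6 genes lower in DKO+Dnmt3b1 than in the mean of DKO+Dnmt3a1 and DKO+Dnmt3a2, 2 are genes of germ cell development, and they are named after their values were seen. Dmrt1, a transcription factor of the testis, was at 4.81 RPKM in DKO+Dnmt3b1, 18.8 in DKO+Dnmt3a1 and 17 in DKO+Dnmt3a2, against 21.6 in DKO (-1.79 ± 0.18 against the Dnmt3a add-backs, limma adjusted p = 0.0187, and 0.00285 to 0.0687 over the alternatives). Stra8, which starts meiosis in response to retinoic acid, was at 2.36 RPKM in DKO+Dnmt3b1, 9.33 in DKO+Dnmt3a1 and 7.24 in DKO+Dnmt3a2, against 10.8 in DKO (limma adjusted p = 0.033, and 0.00389 to 0.124 over the alternatives). Neither was called without TKO+Dnmt3a1 replicate 1 or replicate 2. Phlda2 and Cdkn1c, imprinted neighbours, were among the 6 because of high values in 1 line, DKO+Dnmt3a2, where they were at 110 and 59.1 RPKM, while Phlda2 was at 29.9 RPKM in DKO+Dnmt3b1 and 31.5 in DKO and Cdkn1c at 13 and 12.7.

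The median difference between DKO+Dnmt3b1 and DKO by chromosome ran from -0.07 to 0.13, while that between TKO+Dnmt3b1 and TKO ran from -0.34 to 0.14. In the TKO pair it was -0.34 on chromosome 6, -0.32 on 16, -0.28 on 8, -0.27 on 11 and -0.23 on 12. The TKO pair values given above for genes on these chromosomes, such as the Dlk1-Dio3 cluster on 12, include this shift. Its cause was not tested.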
